A study of Mus musculus with 6 samples.

Results

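Genes of endocytosis, of the endosome and lysosome and of vesicle uptake were described in the mouse embryonic fibroblast line 3T3-L1 after treatment with extracellular vesicles (EVs). The list held 51 mouse symbols, set by name with no cut on their values but with earlier results of these data known, and each matched 1 of the 23725 Entrez identifiers of the RNA-seq count table. Plates were incubated for 24 h in vesicle-depleted medium, and the cells of each plate were divided between RNA and protein work. In the 3 EV libraries (numbered 1, 2 and 4) they received EVs of the mouse liver progenitor line MLP29, on average 20 µg of protein. In the 3 control libraries (numbered 1, 2 and 3) they received a preparation made in the same way from medium that no cells had conditioned. Every group is the same cell line, and the labels name no genetic change in it. Each plate had its own preparation, so that n = 3 per group, and the p-values measure the spread between these plates of 1 line.

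Cells take up vesicles and other cargo by several routes. In the clathrin route, adaptor proteins gather receptors into coated pits that dynamin cuts from the membrane, whereas caveolae are small flask-shaped pits built from caveolins and cavins. Both routes deliver to early endosomes, from which Rab GTPases and sorting complexes direct cargo back to the surface, into intraluminal vesicles or on to the lysosome, where acid hydrolases degrade it. EVs released by cells form partly from the same endosomes, and tetraspanins, Alix (the product of Pdcd6ip) and Tsg101 are widely used as their markers.

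The values are raw counts listed under a gene, and 3 facts of the libraries stand beside all of them. The totals lay between 508599 and 665465 counts, of which the 51 genes together held 0.548% to 0.602% in control libraries and 0.483% to 0.523% in EV libraries. These totals are far below the number of reads that the study's methods give for the sequencing, and the reason was not tested. The libraries were made with a stranded kit, the strand setting of the counting is not given in the sources used here, and in 21 of the 51 genes an annotated exon faces one of a gene transcribed the other way. Genes that fibroblasts usually transcribe at high levels had low counts. Under Actb the table lists 116 to 162 in control and 36 to 79 in EV libraries. For Gapdh these are 236 to 296 and 69 to 123, and for Eef1a1 725 to 975 and 178 to 327. Genes with an opposite-strand overlap are 24.8% of those matched to the annotation. They held 52.5% to 53.9% of all counts in control and 55.7% to 56.7% in EV libraries. With a stranded kit, counts made on the opposite strand would list reads of one gene under another. That this happened was not tested, nor whether a count listed under a member came from its own transcript, so each value below is only what the table lists under that name. The 84 cytosolic ribosomal protein genes held 1.24% to 1.54% of the counts in control libraries and 0.547% to 0.74% in EV libraries, and 71 of 79 tested ones fell past the threshold used here (an adjusted p of 0.05). Of 10 fibroblast markers each was detected in every library and 7 were lower past it, with a summed count of 1329 to 1704 in control and 491 to 752 in EV libraries. That these marker and ribosomal counts have a part in the results on the members was not tested. Markers of the EV donor cells were near 0: of 10 genes, 9 (Alb, Afp, Krt8, Krt18, Krt19, Epcam, Hnf4a, Ttr and Apoa1) had a count of 0 in every library, and Sox9 had 9 to 13. Of 8 adipocyte markers, 5 had 0 counts everywhere and the others at most 5, and no macrophage marker had more than 3.

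Counts were scaled with edgeR's TMM factors, given as CPM (counts relative to a library of fixed size), and tested with its quasi-likelihood test. Adjusted p-values are Benjamini-Hochberg values over all 5066 genes that passed the filter on low counts, and a gene is said to have risen or fallen where this value was below 0.05. Of the 51 genes 36 passed the filter. Counts of 14 fell after EVs and counts of 2 rose, while 14.4% of all genes tested fell and 7.68% rose. Fallen were Cltc, Ap2m1, Cav1, Rab5c, Rab7, Eea1, Pdcd6ip, Lrp1, Lamp1, Ctsb, Ctsd, Ctsl, Atp6v1e1 and Sqstm1, and the risen genes were Ctsa and Npc1. The median log2 fold change, EV over control (below, log2 change), of the 36 was -0.49, that of all genes tested 0.014. Of the 36, 17 had every EV library below every control library and 2, Dnm2 and Ctsa, had every EV library above, against 21.5% and 17.9% of all genes tested. The filter asks for 16.9 CPM in at least 3 libraries, and 4 of the 36 (Ap2b1, Rab5c, Eea1 and Atp6v1e1) met it through the control libraries alone, so that they had to be lower in EV to be there. In 4 more some libraries lay under 16.9 CPM. For Rab7 3 control libraries and 1 EV library reached it, for Cltc and Cd81 3 and 2, and for Rab5a 2 and 1. Among the 28 that met the filter in all 6 libraries, 11 passed the threshold, with Ctsa and Npc1 among them. The share over all genes that met it so was not computed. With a minimum of 10 counts in every library, 9 of 26 members passed (9 lower, 0 higher), against 632 of 3613 genes (487 lower, 145 higher). The median log2 changes were then -0.37 and 0.028. When scaled by total library size alone, 18 members fell and 0 rose, and the median of all genes tested shifted from 0.014 to -0.12. Of all 5066 genes 970 then fell and 90 rose, in place of 732 and 389. Leaving out control library 2 left 8 of 36 members past the threshold (8 lower, 0 higher), in place of 16. Calls over all genes then numbered 489 of 5221 (414 lower, 75 higher), in place of 1121 of 5066. Leaving out EV library 1 left 9 of 44 members lower in place of 14, and 513 of 5788 genes lower in place of 732. The DESeq2 Wald test called 7 members (Cav1, Rab7, Lrp1, Lamp1, Ctsl, Sqstm1 and Ctsa) and 512 of all 5066 genes. Without the filter Ap2m1, Rab5c, Eea1, Pdcd6ip and Ctsb did not pass. In these bulk samples fewer cells of a kind and less RNA per cell cannot be told apart.

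**Figure D1:**
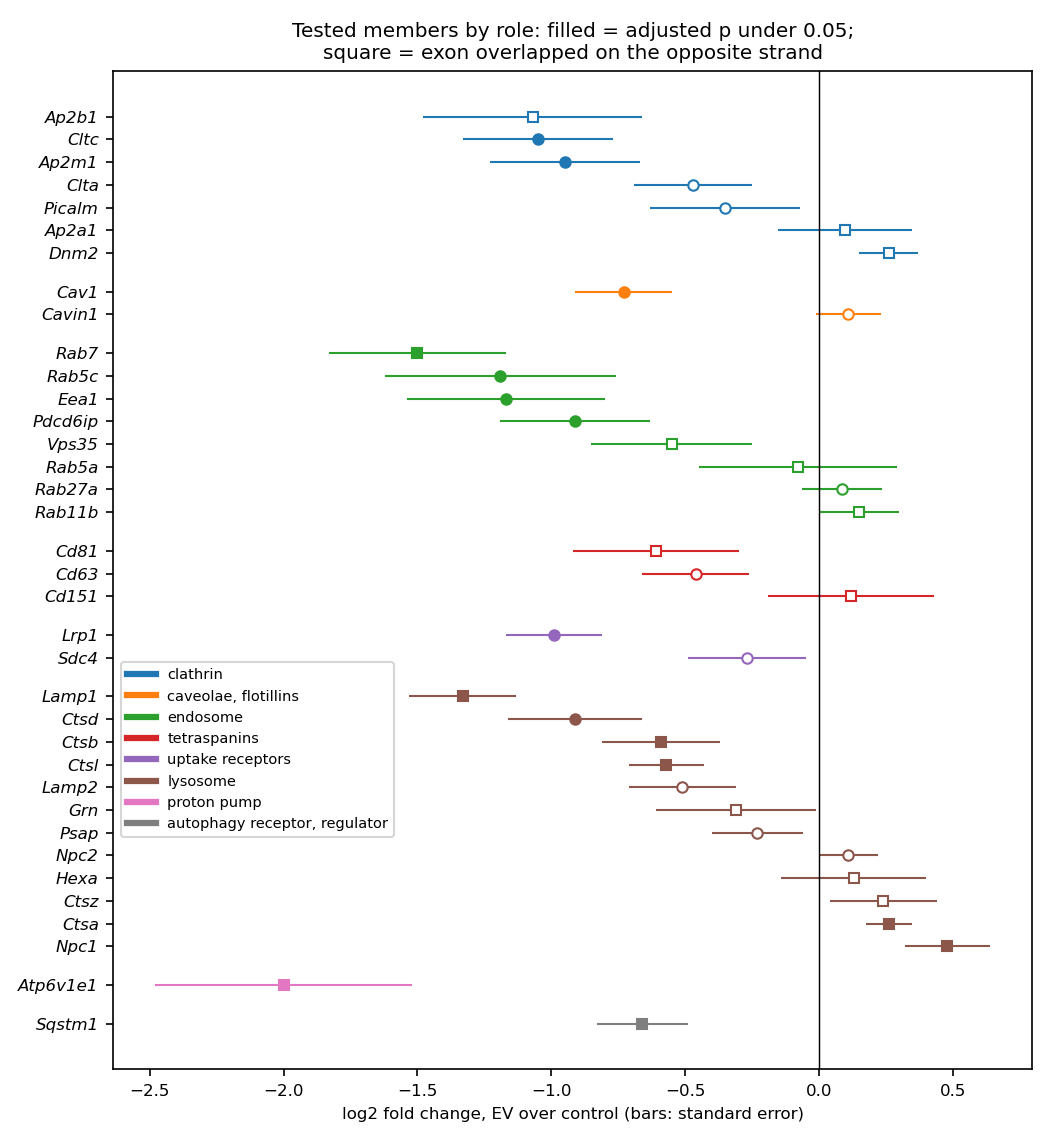
Fitted log2 change, EV over control, of the 36 tested members grouped by role. Bars are standard errors, filled symbols passed an adjusted p of 0.05, and squares have an exon overlapped on the opposite strand. The 14 filled symbols left of 0 lie between -2.00 (Atp6v1e1) and -0.57 (Ctsl), and the 2 on the right are Ctsa and Npc1.

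Many lysosomal genes carry an E-box-like element in the promoter that TFEB, the transcription factor coded by Tfeb, is known to bind. Its core, CACGTG, reads the same on both strands. Promoter windows from RefSeq (GRCm38.p6, 250 bases before to 50 after a start site) were found for 45 of the 51 members, and 10 of these held the core (Ap2m1, Atp6v1a, Ctsa, Ctsd, Ctsl, Lamp1, Pdcd6ip, Picalm, Rab27a and Rab5a), against 8.09% of all genes with a window. The longer TCACGTG, or CACGTGA on the other strand, stood in 7 of them against 4.29% of genes. The longer form contains the core, so the counts overlap. Lamp1 had 4 cores in the 80 bases before its start, and is shown because it held the most. Shorter stretches follow from members that fell (Ctsd and Pdcd6ip), rose (Ctsa) or passed no threshold (Rab5a). Capitals mark the core in Lamp1 and the whole match in the others, each written 5′ to 3′ along its gene. The Ctsa stretch belongs to a start site inside the gene, downstream of its first base. The Rab5a stretch is not the one that holds its full palindrome.
Lamp1, chr8:13159081-13159160, plus strand: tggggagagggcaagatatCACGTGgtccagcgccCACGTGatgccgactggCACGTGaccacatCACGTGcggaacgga
Ctsd, chr7:142387910-142387937, minus strand: tcgcccgcgtcTCACGTGacccgttgag
Pdcd6ip, chr9:113708282-113708309, minus strand: tggtggcaccaTCACGTGaccgagcggc
Ctsa, chr2:164833749-164833776, plus strand: tgagcaaactgTCACGTGatgcagatgc
Rab5a, chr17:53478988-53479015, plus strand: attggagaagaCACGTGAcgcaacccca
The core was thus present in windows of members that fell and of a member that rose. Of the 14 members past the threshold that had a window, 6 held the core. Counts listed under Tfeb itself were 1, 0 and 1 in controls and 0, 0 and 2 after EVs, all under a floor of 3 counts. No difference could be detected with so few counts.

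Of the 8 genes of the clathrin route, 7 were tested, 2 fell and none rose. Cltc, the clathrin heavy chain (chromosome 11, 86694352 to 86757567 of GRCm38), had 25, 46 and 34 counts in controls and 8, 16 and 20 in EV libraries 1, 2 and 4. The groups did not overlap. The normalized CPM were 58.0 ± 14.9 (SD, n = 3) and 27.8 ± 10.7 (SD, n = 3), a log2 change of -1.05 (standard error, SE, 0.28, edgeR adjusted p = 0.00476). Without control library 2 it was -0.86 and did not pass (adjusted p = 0.0728, same test). Ap2m1, the subunit of the AP2 adaptor that reads tyrosine motifs of cargo, had 37, 28 and 31 counts in controls against 17, 13 and 13 with EVs. Every EV library lay below every control library, with a log2 change of -0.95 (SE 0.28, edgeR adjusted p = 0.00999). This call was lost without control library 1 (-0.79, edgeR adjusted p = 0.0791), without EV library 2 (-0.80, 0.0677) and without EV library 4 (-0.84, 0.0547).

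Dnm2, the dynamin that pinches coated pits off the membrane, was the most counted gene of the clathrin route. It had 184, 232 and 251 counts in controls and 220, 252 and 221 after EVs, or 370 ± 27.0 and 444 ± 20.6 normalized CPM (SD, n = 3 each). After scaling all 3 EV libraries lay above the control libraries, and the log2 change of 0.26 (SE 0.11) did not pass (edgeR adjusted p = 0.0857). With TMM factors computed before the filter it was 0.32 and passed (edgeR adjusted p = 0.044). The last 207 bases of Dnm2 lie over Tmed1 on the opposite strand, which had 72 to 117 counts in the control and 73 to 129 after EVs. Of the others, Ap2b1 had 12 to 14 counts in control and 5 to 6 in EV libraries (log2 change -1.07, edgeR adjusted p = 0.0511) and Clta 39 to 46 and 20 to 33 (-0.47, 0.115). Both had groups that did not overlap, and both passed only with the total library size. Ap2b1 met the filter through the control libraries alone and had to be lower in EV to be tested. For Picalm and Ap2a1 the log2 changes were -0.35 and 0.098, with groups that overlapped, and that of Ap2a1 was -0.15 without control library 1. Cltb, the other light chain, had 3 to 11 counts per library and was below the filter.

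Of the 5 genes of caveolae and flotillins only Cav1 and Cavin1 reached the test, and they differed in their values. Cav1, the main structural protein of caveolae (chromosome 6, 17306335 to 17341328), had 72, 99 and 83 counts in controls and 41, 49 and 43 after EVs, so that the groups lay apart. The means were 141 ± 17.2 and 85.1 ± 2.33 normalized CPM (SD, n = 3 each), a log2 change of -0.73 (SE 0.18, edgeR adjusted p = 0.00193). Cav1 fell in every alternative fit, with log2 changes between -0.82 and -0.66 when each library was left out in turn and adjusted p-values of at most 0.0267 over all alternatives (edgeR or DESeq2). The annotation places no opposite-strand exon over Cav1. Cavin1, the coat protein that stabilizes caveolae, had 203, 195 and 205 counts against 161, 214 and 193, with groups that overlapped. Its log2 change was 0.11 (SE 0.12, edgeR adjusted p = 0.519, interval of 95% from -0.12 to 0.34), and it turned to -0.028 with the total library size. A difference between Cav1 and Cavin1 was not tested. Flot1, a scaffold protein of membrane domains, had 14, 15 and 11 counts in controls and 4, 6 and 2 after EVs, below the filter. Without the filter its log2 change was -1.42 (edgeR adjusted p = 0.038). Flot2 had 9 to 13 counts in control and 0 to 10 in EV libraries, and Cav2 had 7 in each control library and 4 to 8 in EV libraries.

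Of the 11 genes of endosomes and sorting 8 were tested, 4 fell and none rose. Rab7, the GTPase of late endosomes (chromosome 6, 87999106 to 88045270), had 21, 36 and 22 counts in controls and 5, 8 and 11 after EVs. Its log2 change of -1.5 (SE 0.33, edgeR adjusted p = 0.000764) held when each library was left out in turn, between -1.76 and -1.27. An antisense gene, Gm5577, lies over 204 coding bases of Rab7 and was not analysed here. Of the genes of the early endosome, Eea1, a tether that brings endosomes together before fusion, had 11, 20 and 24 counts in controls and 3, 9 and 9 with EVs (log2 change -1.17, SE 0.37, edgeR adjusted p = 0.0178). Rab5c, an early endosome GTPase, had 12, 14 and 14 against 1, 5 and 9 (-1.19, SE 0.43, edgeR adjusted p = 0.0376). EV library 1 was the lowest for all 3 genes, and the groups of none of them overlapped. Eea1 and Rab5c met the filter through the control libraries alone, so that they had to be lower in EV to be tested. Without EV library 1 the log2 changes of Eea1 and Rab5c were -0.84 and -0.74 and neither passed (edgeR adjusted p = 0.12 and 0.25). The Rab5c call was also lost without control library 1, control library 2, control library 3 or EV library 2 (edgeR adjusted p = 0.0852, 0.123, 0.059 and 0.125). That of Eea1 was lost without control library 2 or control library 3 (0.0795 and 0.0747).

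Rab5a is a close relative of Rab5c, and a difference between their responses was not tested. It had 11, 12 and 11 counts in controls and 9, 10 and 9 after EVs, a log2 change of -0.077 (SE 0.37, edgeR adjusted p = 0.90). The 221 bases at its end, in no coding region of either gene, lie over Pp2d1 on the opposite strand. Pp2d1 had 178, 214 and 231 counts in controls and 246, 302 and 262 after EVs, many times those of Rab5a. It rose, with a log2 change of 0.58 (SE 0.11, edgeR adjusted p = 8.74e-05) that held in every alternative. Rab11b and Rab27a, GTPases of recycling and of EV secretion, were the most counted Rab genes of the list. Rab11b had 108, 113 and 103 counts against 109, 117 and 86 (log2 change 0.15, edgeR adjusted p = 0.49). Rab27a had 84, 91 and 116 against 90, 82 and 96, a log2 change of 0.087 (SE 0.15, edgeR adjusted p = 0.71), which turned to -0.049 with the total library size and to -0.0083 without control library 2. For both the groups overlapped. Rab11a, whose product is closely related to that of Rab11b, had 5 to 8 counts in control and 1 to 3 in EV libraries and was below the filter.

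Of the genes of sorting into intraluminal vesicles, Pdcd6ip (chromosome 9, 113651744 to 113708279) had 23, 30 and 34 counts in controls and 9, 18 and 13 after EVs. The groups did not overlap, and the log2 change was -0.91 (SE 0.28, edgeR adjusted p = 0.0152). It did not pass without EV library 1 (-0.72, edgeR adjusted p = 0.0805) or without EV library 4 (-0.85, 0.0602). Tsg101, a subunit of the ESCRT-I complex, had 4, 10 and 4 counts against 4, 5 and 3, and Hgs, which recruits ESCRT-I to ubiquitinated cargo, 4 to 12 against 2 to 6. Both were below the filter. Vps35, the core of the retromer complex that returns cargo from endosomes, had 19 to 27 counts in control and 9 to 19 in EV libraries (log2 change -0.55, edgeR adjusted p = 0.18), with groups that overlapped.

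The tetraspanins, small membrane proteins abundant on EVs, had no member past the threshold among the 3 of 4 that were tested. Cd63, which also marks late endosomes, had 63, 71 and 51 counts in controls and 31, 42 and 44 after EVs. In normalized CPM, 104 ± 20.9 and 74.6 ± 9.45 (SD, n = 3 each), the groups overlapped, and the log2 change was -0.46 (SE 0.20, edgeR adjusted p = 0.081). It passed without control library 3 (-0.66, edgeR adjusted p = 0.0189) and with the total library size (-0.60, 0.0294). Cd81 had 19, 30 and 23 counts against 7, 23 and 11, of which EV library 2 lay within the control range. Its log2 change of -0.61 (edgeR adjusted p = 0.14) was -1.11 without EV library 2 and then passed (0.033). Cd151 had 11 to 21 counts in control and 15 to 17 in EV libraries, a log2 change of 0.12 that turned to -0.18 without control library 2. Cd9, below the filter, had 10, 14 and 8 counts against 4, 6 and 4.

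Of the 3 uptake receptors, Lrp1, a large scavenger receptor for many extracellular ligands (chromosome 10, 127538157 to 127621148), fell. It had 86, 92 and 92 counts in controls and 35, 48 and 35 after EVs, or 151 ± 7.6 and 75.2 ± 8.79 normalized CPM (SD, n = 3 each). The groups lay far apart, with a log2 change of -0.99 (SE 0.18, edgeR adjusted p = 3.16e-05) that held in every alternative fit, with adjusted p-values of at most 0.00216. No exon of Lrp1 is overlapped on the opposite strand. Sdc4, a heparan sulfate proteoglycan of the cell surface, had 39 to 48 counts in control and 25 to 36 in EV libraries (log2 change -0.27, edgeR adjusted p = 0.373). Tfrc, the transferrin receptor and a standard cargo of clathrin-coated pits, had 10, 10 and 4 counts against 3, 5 and 6 and was below the filter.

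**Figure D2:**
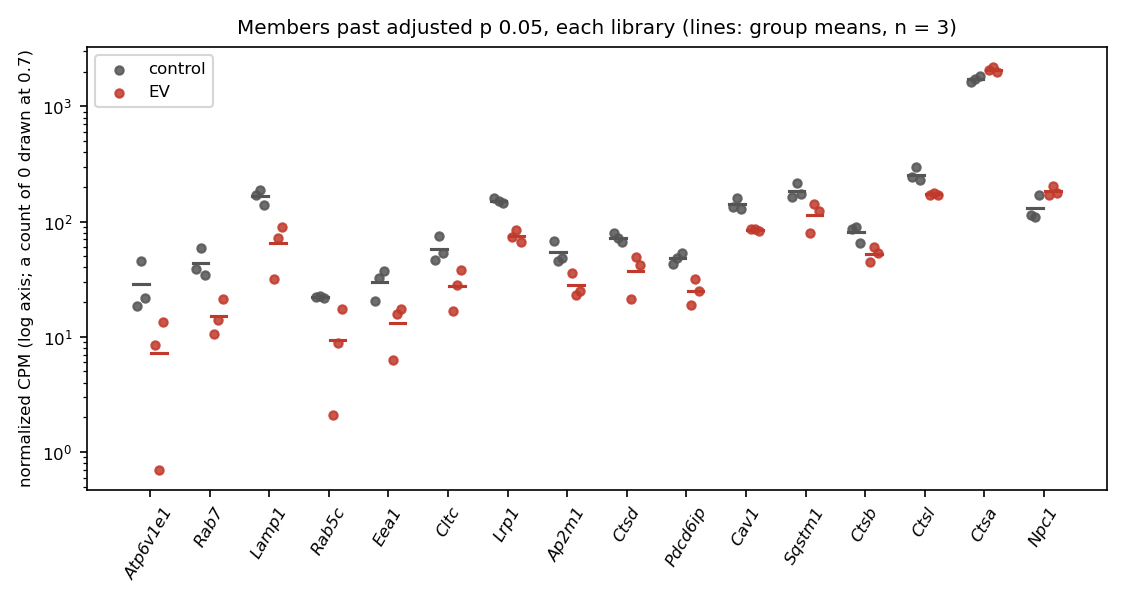
Normalized CPM, on a log axis, of the 16 members past an adjusted p of 0.05 in each control library (grey) and EV library (red), with lines at the group means (n = 3). The groups lie apart for every gene but Npc1, where a control library reaches the EV values, and the count of 0 in EV library 2 for Atp6v1e1 is drawn at the lower edge.

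The lysosome had 12 of its 13 genes tested, and these moved both ways, 4 down and 2 up. The most marked fall was that of Lamp1, which codes for an abundant protein of the lysosomal membrane (chromosome 8, 13159161 to 13175338). It had 93, 115 and 89 counts in controls and 15, 41 and 47 after EVs, so that EV library 1 was the lowest and the groups did not overlap. With 166 ± 24.5 and 64.7 ± 29.9 normalized CPM (SD, n = 3 each) the log2 change was -1.33 (SE 0.20, edgeR adjusted p = 9.7e-07). With any library omitted it lay from -1.58 to -0.99, and it passed in every alternative that tested it. The promoter of Lamp1 is the one printed above with 4 cores. In GENCODE the exons of Lamp1 lie over those of Grtp1 on the opposite strand, outside the RefSeq span of Grtp1 (13176869 to 13200766). Grtp1 had at most 2 counts in any library. Lamp2, the related membrane protein, had 46 to 68 counts in control and 23 to 41 in EV libraries, which did not overlap and did not pass (log2 change -0.51, edgeR adjusted p = 0.0586). It passed with the total library size (-0.65, 0.0204) and with a minimum of 10 counts in every library (-0.60, 0.0409).

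Among the cathepsins, the proteases of the lysosome, Ctsd, Ctsb and Ctsl fell. Ctsd, an aspartic protease, had 43, 44 and 43 counts in controls and 10, 28 and 22 after EVs, and again EV library 1 was the lowest. Its log2 change was -0.91 (SE 0.25, edgeR adjusted p = 0.00526), and -0.61 without EV library 1, where it did not pass (0.07). Ctsl, a cysteine protease, had 131, 183 and 146 counts against 81, 100 and 88. The groups did not overlap, and the log2 change of -0.57 (SE 0.14, edgeR adjusted p = 0.00239) passed in every alternative that tested it. The antisense gene Gm47123, not analysed here, lies over 1742 bases of Ctsl. Ctsb, also a cysteine protease, had 47, 55 and 42 against 21, 34 and 28 (-0.59, SE 0.22, edgeR adjusted p = 0.0419). This call was the least steady of the lysosomal ones, since it was lost without control library 1, control library 2, EV library 1, EV library 2 or EV library 4 (edgeR adjusted p = 0.116, 0.146, 0.165, 0.0574 and 0.115) and with TMM factors computed before the filter (0.0664). The last 774 bases of Ctsb lie over Fdft1, an enzyme of sterol synthesis, which had 204, 227 and 261 counts in the control and 225, 300 and 269 after EVs. Fdft1 rose where Ctsb fell, with a log2 change of 0.40 (SE 0.11, edgeR adjusted p = 0.00664), which was lost without control library 2 or with the total library size.

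Ctsa, a carboxypeptidase that also protects other lysosomal enzymes, was by far the most counted member (chromosome 2, 164832872 to 164841032). It had 879, 1074 and 1182 counts in controls and 972, 1245 and 1032 after EVs, or 1740 ± 112 and 2080 ± 109 normalized CPM (SD, n = 3 each). After scaling every EV library lay above every control library, by a log2 change of 0.26 (SE 0.086, edgeR adjusted p = 0.0257). The rise did not pass with the total library size (0.12, edgeR adjusted p = 0.252), or when control library 1 (0.18, 0.164), control library 2 (0.22, 0.11) or EV library 2 (0.24, 0.106) was left out. Exons of Ctsa lie over 2 genes of the opposite strand, Pltp at 495 bases, 304 of them coding in Pltp, and Neurl2 at 324 bases, all coding in Neurl2. Pltp had 543, 677 and 737 counts in controls and 628, 821 and 761 with EVs. Both partners rose, Pltp by 0.38 (SE 0.091, edgeR adjusted p = 0.00178) and Neurl2 by 0.47 (SE 0.13, edgeR adjusted p = 0.00656) on the log2 scale. The call of Neurl2 was lost without control library 2 and with the total library size.

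Npc1, which exports cholesterol from the lysosome, had 62, 67 and 110 counts in controls and 81, 116 and 93 after EVs. Control library 3 lay within the EV range after scaling, and the log2 change was 0.48 (SE 0.16, edgeR adjusted p = 0.0247). It failed when a control library was left out, number 1 (0.37, edgeR adjusted p = 0.166) or number 2 (0.32, 0.258), without EV library 2 (0.42, 0.0996) and with the total library size (0.35, 0.125). Rmc1, on the opposite strand over 511 bases, had 30, 39 and 45 counts against 44, 56 and 60 and also rose, by 0.69 (SE 0.20, edgeR adjusted p = 0.00875), a call lost without control library 1 or control library 2. Npc2, the soluble partner of Npc1 in cholesterol export, had 258 to 283 counts in control and 208 to 313 in EV libraries, a log2 change of 0.11 that did not pass (edgeR adjusted p = 0.483) and turned to -0.028 with the total library size. The other tested genes, Psap, Grn, Ctsz and Hexa, lay between -0.31 and 0.24, each with groups that overlapped. Scarb2, a receptor that carries a hydrolase to the lysosome, had 3 to 7 counts and was below the filter.

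**Figure D3:**
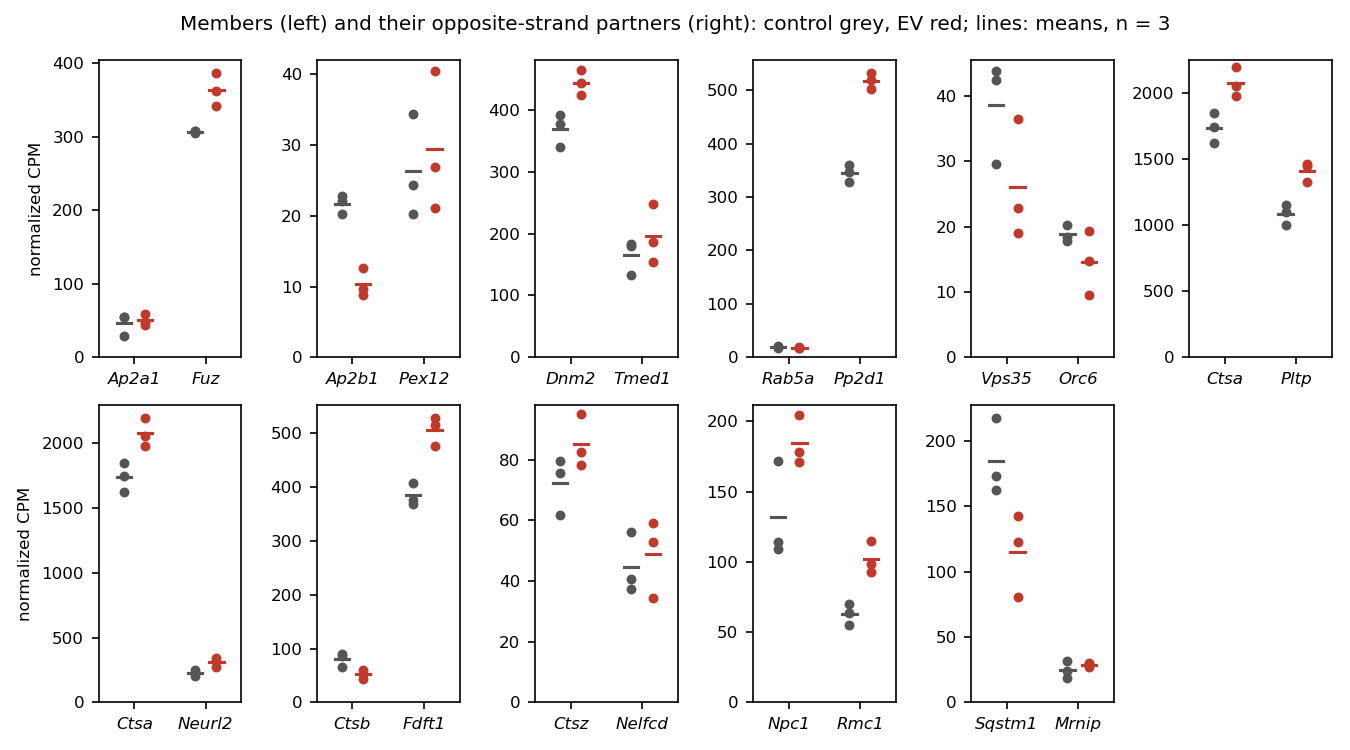
Normalized CPM of tested members (left of each panel) and of the tested gene on the opposite strand whose exons overlap theirs (right), for control (grey) and EV libraries (red) with lines at the means, n = 3. Fuz, Pp2d1, Pltp, Neurl2, Fdft1 and Rmc1 had all EV libraries above all control libraries. Of the members they overlap, Ctsa and Npc1 rose, Ctsb fell, and Ap2a1 and Rab5a lay near their control levels.

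The vacuolar proton pump acidifies endosomes and lysosomes, and 1 of its 5 listed subunits reached the test. Atp6v1e1 had 10, 28 and 14 counts in controls and 4, 0 and 7 after EVs, a log2 change of -2.00 (SE 0.48, edgeR adjusted p = 0.00163). Control library 2 was the highest and EV library 2 at 0. Atp6v1e1 met the filter through the control libraries alone, so that it had to be lower in EV to be tested. Without control library 2 the value was -1.53 and did not pass (edgeR adjusted p = 0.0965), and with each library left out it ranged from -2.80 to -1.34. In GENCODE Slc25a18 overlaps Atp6v1e1 over 32 bases on the opposite strand, outside the RefSeq span of either gene. Slc25a18 had 6, 8 and 6 counts against 2, 4 and 6. The other 4 subunits, below the filter, had 4 to 17 counts in control and 0 to 9 in EV libraries. For Atp6v0c (9, 12 and 13 against 3, 3 and 6) and Atp6v1h (4, 12 and 5 against 0, 2 and 3) the EV libraries lay below the control libraries, and neither passed without the filter (edgeR adjusted p = 0.102 and 0.103).

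Sqstm1, the autophagy receptor also named p62 (chromosome 11, 50200152 to 50210820), had 88, 134 and 111 counts in controls and 38, 81 and 64 after EVs. The groups lay apart, at 185 ± 29.4 and 115 ± 31.9 normalized CPM (SD, n = 3 each), with a log2 change of -0.66 (SE 0.17, edgeR adjusted p = 0.00318). It did not pass without EV library 1 (-0.44, edgeR adjusted p = 0.061) or without control library 2 (-0.56, 0.0606). Mrnip, which shares 580 bases with the longer GENCODE model of Sqstm1 on the opposite strand, had 12 to 17 counts in control and 14 to 17 in EV libraries and did not pass (log2 change 0.23, edgeR adjusted p = 0.624).

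**Figure D4:**
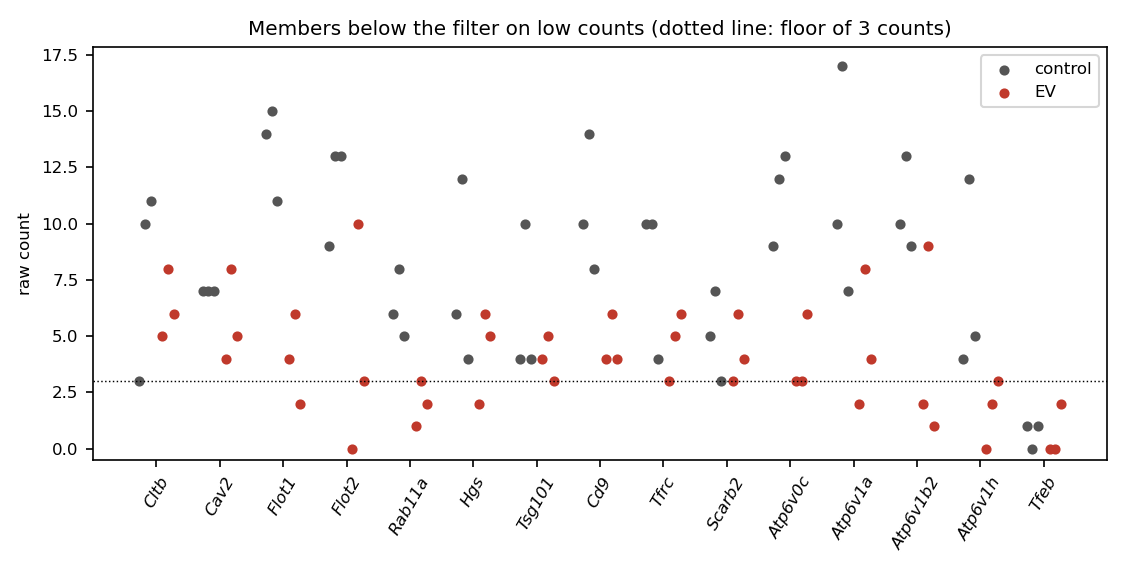
Raw counts of the 15 members below the filter in each control (grey) and EV library (red), with a dotted line at the floor of 3 counts. No member here exceeds 17 counts, and Flot1, Rab11a, Cd9, Atp6v0c and Atp6v1h have all EV libraries below all control libraries.

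Set side by side by role, the median log2 changes of the tested genes were -0.47 for the clathrin route (7 genes), -0.31 for caveolae and flotillins (2), -0.73 for the endosome (8), -0.46 for tetraspanins (3), -0.63 for uptake receptors (2) and -0.27 for the lysosome (12). The median of each of these roles lay below the control libraries in every EV library except that of the tetraspanins, where EV library 2 (-0.08 on the log2(CPM + 1) scale) lay within the control range of -0.13 to 0.18. Over the 36 members together the library medians were between -0.08 and 0.05 in controls and -0.60, -0.38 and -0.28 in EV libraries 1, 2 and 4, whereas over all genes tested they lay between 0 and 0.03. EV library 1 was the lowest for the members together. The medians include Ap2b1 of the clathrin route and Rab5c and Eea1 of the endosome, which met the filter through the control libraries alone. Differences between the roles were not tested.

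**Figure D5:**
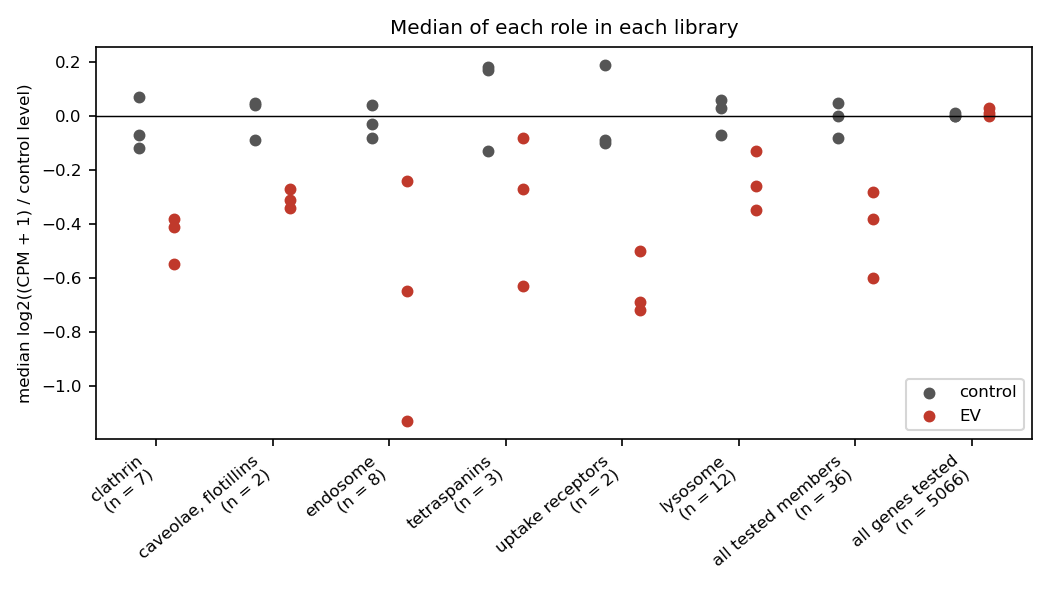
Median over the tested genes of each role of log2((CPM + 1) / control level) in each library, control in grey and EV in red. All tested members lie at -0.60, -0.38 and -0.28 after EVs, and all genes tested lie near 0 in both groups.

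Members with an opposite-strand overlap and those without it were also set apart. Of the 30 without, 17 were tested, 8 fell and none rose, with a median log2 change of -0.51, while of all tested genes without an overlap 19.9% fell and 2.59% rose. Of the 21 with an overlap, 19 were tested, 6 fell and 2 rose, with a median of -0.31, while of all tested genes with an overlap 9.49% fell and 12.4% rose. The same split over all genes tested gave -0.21 without and 0.13 with an overlap, so the members lay lower than their class in both. Of the partners that had a row, 11 were tested and 5 rose (Pp2d1, Pltp, Neurl2, Fdft1 and Rmc1). None fell, and without control library 2 the rises numbered 2. Per kilobase of exon the highest members were Ctsa (404 normalized CPM per kb), Cavin1 (97.5) and Npc2 (87.4), and the lowest Tfeb (0.213).

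A wider list of 217 genes of the same roles was called about as often as all genes tested, 21.9% against 22.1%. Of these 73 were tested, 13 fell (17.8%, against 14.4% of all genes tested) and 3 rose (4.11%, against 7.68%), with a median log2 change of -0.18. Without control library 2 the calls numbered 5 of 78, and without EV library 4 they numbered 9 of 95. Over all genes the same fits called 489 of 5221 and 887 of 5796. The falls were in uptake receptors (4 of 12 tested), in the endosome (3 of 17), in caveolae-related genes (2 of 7), in the lysosome (2 of 17), in the clathrin route (1 of 9) and in autophagy (1 of 5). None of the 3 further tetraspanins or the 3 further pump subunits passed. By role, those with the lowest adjusted p were Tax1bp1, an autophagy receptor (29, 36 and 26 counts in control and 8, 11 and 9 in EV libraries, log2 change -1.49, edgeR adjusted p = 0.000262), Lgals3, a galectin that binds damaged endosomes (37, 38 and 32 against 9, 19 and 14, -1.14, 0.00159), and Chmp4b, an ESCRT-III subunit (27, 47 and 51 against 8, 20 and 25, -1.03, 0.00341). For each of them the groups did not overlap. Eps15l1 of the clathrin route (-1.43), Ehd2 at the caveolar neck (-1.05) and the lysosomal glucosidase Gaa (-0.98) also fell, and did not pass without EV library 1. Ehd2 was the least steady of them, lost in 5 of 6 fits that left out a library. Among the fallen genes of the wider list, Eps15l1, Ehd1, Ehd2 and Sdc2 met the filter through the control libraries alone. They had to be lower in EV to be there, and Ehd1 and Ehd2 are the 2 falls in caveolae-related genes. The risen genes were Gpc6, a cell surface proteoglycan (71, 68 and 76 against 93, 91 and 89, 0.55, edgeR adjusted p = 0.00928), Atg7 (0.36) and Ppt1 (0.32). None of these rises passed with the total library size or without control library 2.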

How the data were processed

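Per the labels and the study's methods, 3T3-L1 cells were treated with EVs or a control preparation (n = 3 each) and sequenced as stranded mRNA libraries. The authors aligned reads to mm10 with STAR, made gene counts with Rsubread and deposited them as raw counts, not normalized, at 508599 to 665465 counts per library. Tool versions, the annotation release and the strand setting are not given in the sources used here. DESeq2, named in the submitters' processing notes, was the study's own test. The study lists far fewer transcripts as changed than the 512 genes that DESeq2 called here, and no member is among them. The reason for this difference was not tested.

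The members, lists and the rule for named genes were chosen with earlier results of these data known. Members past the threshold, the most counted of each role and a set of vesicle or route markers are given with every count, others by range. Of the wider list the gene of lowest adjusted p per role and direction is named.

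The fit used filterByExpr, TMM, estimateDisp, glmQLFit (legacy=FALSE) and glmQLFTest of edgeR 4.0.16 (R 4.3.3) over all genes without covariates, with Benjamini-Hochberg adjustment over 5066 genes and a threshold of 0.05. The biological coefficient of variation was 0.0779. A standard error is |log2 change| over √F of the test, and the interval of 95% spans 1.96 of them on either side. Symbols came from RefSeq (99.8% of identifiers) and exon overlaps from GENCODE vM21 (88.7%), both of GRCm38, the assembly also named mm10. Alternatives were other scalings, filters and fits, DESeq2 1.42.0, a block for the replicate number, and omission of each library. Added once the data had been seen were the legacy fit and TMM before the filter. The fit was tested on simulated data, where edgeR recovered 83.9% of 186 changed genes among 4805, with 4.29% of its calls false. In the real data 1121 of 5066 genes were called, and whether these rates hold with so many calls was not tested. No 2 libraries of a group agreed within sampling noise (chi-square over its degrees of freedom 1.15 to 1.76), so each counted once.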

Additional observations from a re-analysis of the deposited data

How the results depend on the processing

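With all 6 libraries, 16 members passed the threshold in edgeR (14 lower, 2 higher). The DESeq2 Wald test called 7 (6 lower, 1 higher), a minimum of 10 counts in every library left 26 members to test and 9 calls (9 lower, 0 higher), and leaving out genes with an opposite-strand overlap left 17 and 7 calls (7 lower, 0 higher). Over all genes these 3 fits called 512 of 5066, 632 of 3613 and 682 of 2968, in place of 1121 of 5066. The total library size gave 0 higher. TMM before the filter gave 13 lower and 3 higher. With each library left out, 8 to 17 members passed, 8 to 15 lower and 0 to 2 higher, while calls over all genes numbered 489 to 1215. Of the 16 members, 5 (Cav1, Rab7, Lrp1, Lamp1 and Ctsl) kept their call in all 6 such fits. These 5 also passed in every other alternative that tested them. The members' median of -0.49 was -0.63 with the total library size and -0.33 to -0.63 with each library left out. Calls in the wider list, 16, fell to 5 with DESeq2, 4 with a minimum of 10 counts and 8 without overlapping genes, and ranged from 5 to 21 with each library left out. The 5 calls among opposite-strand partners were 3 with the total library size and 2 to 5 with each library left out. Of the tested members 7 turned direction under some alternative, none of them past the threshold. With the total library size these were Cavin1 (-0.028), Npc2 (-0.028), Rab27a (-0.049), Ap2a1 (-0.039), Cd151 (-0.021) and Hexa (-0.0038), and without the filter Rab5a (0.0079). With each library left out, Rab27a ranged from -0.0083 to 0.23, Ap2a1 from -0.15 to 0.21 and Cd151 from -0.18 to 0.27. Some alternatives fit fewer genes or libraries by construction, and otherwise the cause was not tested. Over the 36 tested members and all alternatives, 475 single values kept direction and side of the threshold, 51 lost the call, 11 gained it and 10 turned. Libraries 1 and 2 share their number across groups. Deviations of same-numbered libraries correlated at 0.0714 and 0.0634, so the numbers were not taken as pairs. Control library 3 and EV library 4 share their number with no other library. In a fit with the number as a block, the EV effect thus rested on libraries 1 and 2 of each group. With the replicate number as a block 17 members passed (15 lower, 2 higher), with a median of -0.63, 12 genes of the wider list and 5 partners. Eea1 (adjusted p = 0.0651) and Pdcd6ip (0.0769) then did not pass, nor did Eps15l1, Ehd2 and Gaa, whereas Vps35 (0.0359), Cd63 (0.0147) and Lamp2 (0.0313) did. At these counts the 15 members below the filter limit what can be said of the proton pump, the flotillins and Tfeb.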
